A study of Mus musculus with 7 samples.

Results

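Methionine is the amino acid with which the synthesis of nearly all cytosolic proteins starts. It is carried by separate initiator and elongator tRNAs that share the anticodon CAU, written CAT in the tables used here. All rows of both kinds were taken from the tRNA tables of mouse glial cells. These were the pools iMet-CAT (initiator) and Met-CAT (elongator) among 52 anticodon pools, and 9 isodecoders among 217. An isodecoder is a tRNA that shares its anticodon with the rest of its pool but has a different body. The initiator pool held 3 isodecoders, encoded by 9 genes as the row names list them, and the elongator pool held 6, encoded by 8 genes.

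The initiator tRNA is bound by the initiation factor eIF2 as a complex with GTP, is placed in the ribosomal P site at the start codon, and does not normally take part in elongation. The elongator tRNA is brought to the A site by the elongation factor eEF1A and reads AUG within the open reading frame. Both are charged by the same methionyl-tRNA synthetase and both are transcribed by RNA polymerase III. Mutations in the eIF2B complex, which recharges eIF2 with GTP, cause a leukodystrophy, a disease of the myelin that oligodendrocytes make.

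QuantM-seq was used to quantify the tRNAs, a method in which an adapter is ligated to the ends of deacylated mature tRNAs before reverse transcription. The 7 libraries were from oligodendrocyte progenitor cells (OPCs, n = 3), oligodendrocytes (OLs, n = 2) and astrocytes (n = 2), all of the mouse strain 129S/SvEv and all in culture. OPCs had been derived from epiblast stem cells and were grown with bFGF and PDGFA. OLs were made from OPCs with thyroid hormone (T3) in a medium that also held noggin, IGF-1, cyclic AMP and NT3, and astrocytes were made from OPCs with BMP4 together with bFGF, Hb-EGF and CNTF. By the study's own description the OL cultures still held undifferentiated OPCs, so these are not pure cell types. Per the study's methods both OL cultures came from OPC cultures that were also sequenced, but which ones is not given in the sources used here, so OL and OPC libraries are related by origin and could not be matched. The labels name no separate derivations of the OPCs, and p-values measure only the spread between these libraries. The tables hold tRNAs alone, so the cell types could not be checked against mRNA markers.

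Values are in RPM, meaning reads of that tRNA out of every 1000000 assigned to cytosolic or mitochondrial tRNAs. Between 1339021 and 2627351 reads were assigned per library, so that 3 reads, taken as the most that a count of 0 can hide, were worth 1.14 to 2.24 RPM. Both methionine pools were far above this limit, with 22414 to 48450 reads for the initiator and 92940 to 185939 for the elongator. Intervals given below are built from the reads of single libraries and cover only the error of counting. The libraries carried no molecular identifiers to mark PCR copies, so copies count as separate reads and the intervals may be too narrow. RPM are shares of a sequenced total, so a higher value can be more of that tRNA or less of others. In these bulk cultures a smaller number of cells of one kind and less of a tRNA in each cell cannot be told apart.

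RefSeq lists 16 methionine CAT tRNA genes on GRCm38.p6, the patched assembly of mm10, of which 11 lie on chromosome 13 between 21167604 and 23530419. A further 3 lie on chromosome 15, and chromosomes 3 and 8 hold 1 each. By the GENCODE annotation of the same assembly 13 of the 16 are intergenic, 3 lie in introns and 0 overlap an exon. The genes are 72 nt long in 9 cases and 73 nt in 7. RefSeq symbols and the isodecoder names are not paired in the sources used here, so no gene is assigned to an isodecoder. If reads scaled with gene length, a difference of this size would shift the ratio of the pools by at most 1.39%. Whether they do, and how evenly the method captures both pools, was not tested.

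The initiator pool was first compared across the 3 cell types. iMet-CAT stood at 16739, 16763 and 17067 RPM in OPC replicates 1 to 3, at 19965 and 19267 RPM in OL replicates 1 and 2, and at 15420.1 and 18441 RPM in astrocyte replicates 1 and 2. The OPC libraries lay close together and both OL libraries lay above them, while the astrocyte libraries fell on either side of the OPCs. The OPC mean was 16856.5 ± 183 RPM (SD, n = 3), against 19616 ± 493 RPM for OLs (SD, n = 2) and 16930.3 ± 2136 RPM for astrocytes (SD, n = 2). As a share of cytosolic tRNA the pool made up 1.80% ± 0.0029 in OPCs, 2.04% ± 0.046 in OLs and 1.84% ± 0.234 in astrocytes. The pool held rank 17 to 20 of the 52 pools in every library.

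The difference between OLs and OPCs in iMet-CAT was 0.22 on the log2(RPM + 1) scale (SE 0.030), with an adjusted p of 0.0402 in limma, above the threshold of 0.01 used throughout. No pool passed that threshold (0 of 52, 0%), although 13 had an unadjusted p under 0.05. OL libraries lay wholly above the OPC libraries for 32.7% of all pools, the initiator pool among them. The median difference over all pools was 0.12, so iMet-CAT stood 0.10 above that median. Under median-of-ratios scaling, which centres the libraries on their typical tRNA, its difference was 0.12 with a limma adjusted p of 0.215.

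Astrocytes and OPCs had almost the same mean of iMet-CAT, with a log2 difference of 0.00060 (SE 0.089) that was -0.13 without astrocyte replicate 2 and 0.13 without astrocyte replicate 1. No pool passed in that comparison either (0 of 52, 0%; 6 at an unadjusted p under 0.05). Between OLs and astrocytes the log2 difference was 0.22 (SE 0.087), and the OL libraries were the higher ones, as they were for 48.1% of all pools. Its limma adjusted p was 0.258, and 0 of 52 pools (0%) passed, with 8 at an unadjusted p under 0.05. In order of mean level OPCs and astrocytes were therefore neighbours that did not differ beyond their spread.

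The elongator pool was the most abundant or close to it. Met-CAT stood at 75277, 82431 and 76434 RPM in the OPC libraries, at 74174 and 57906 RPM in the OL libraries, and at 65211 and 61488 RPM in the astrocyte libraries. It ranked first of 52 pools in all 3 OPC libraries and in OL replicate 1, and held rank 3 in OL replicate 2. Its rank was 2 and 4 in the astrocyte libraries. All 4 libraries of differentiated cells lay below all 3 OPC libraries, but OL replicate 1 lay only just below the lowest of them, and the OL libraries were further apart than those of any other group.

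The OPC mean of Met-CAT was 78047 ± 3840.5 RPM (SD, n = 3), against 66040.2 ± 11503 RPM for OLs (SD, n = 2) and 63349.5 ± 2633 RPM for astrocytes (SD, n = 2). These are 8.33%, 6.86% and 6.87% of cytosolic tRNA. The log2 difference between OLs and OPCs was -0.25 (SE 0.124, limma adjusted p 0.237), but -0.43 without OL replicate 1 and -0.072 without OL replicate 2. Relative to the median of all pools it was -0.37, and under median-of-ratios scaling -0.35. The OL libraries lay wholly below OPC libraries for 15.4% of all pools. Between astrocytes and OPCs it was -0.30 (SE 0.070), with an unadjusted p of 0.00932 and a limma adjusted p of 0.242, and 19.2% of pools had astrocyte libraries wholly below. It was the pool with the 3rd lowest difference of 52 in that comparison. OLs and astrocytes overlapped, with a log2 difference of 0.050 (SE 0.128, adjusted p 0.788 in limma) that was -0.060 under median-of-ratios scaling.

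**Figure D1:**
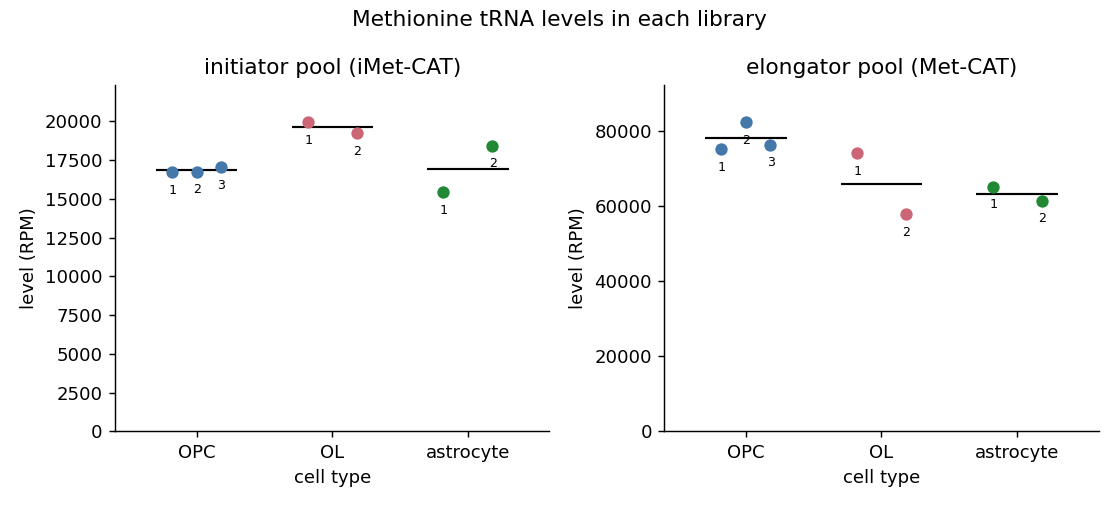
Level of the initiator pool (left) and elongator pool (right) in RPM on axes that start at 0, by cell type; each point is a library with its replicate number, and each black line is the group mean. OL libraries of the initiator pool, at 19267 and 19965 RPM, lie above the OPC libraries, and all OL and astrocyte libraries of the elongator pool lie below the lowest OPC library at 75277 RPM.

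Both pools together made up 10.1% ± 0.463 of cytosolic tRNA in OPCs (SD, n = 3), against 8.90% ± 1.22 for OLs (SD, n = 2) and 8.71% ± 0.0445 for astrocytes (SD, n = 2). The balance between them was then examined in each library, which needs no scaling between libraries because both pools are read from the same one. The ratio of initiator to elongator was 0.222, 0.203 and 0.223 for OPC replicates 1 to 3, then 0.269 and 0.333 for OLs and 0.236 and 0.2999 for astrocytes. Every library of differentiated cells had a higher ratio than every OPC library, and replicate 2 was the higher one in both OLs and astrocytes.

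Expressed as a share of all methionine tRNA reads, the initiator made up 18.2%, 16.9% and 18.3% in OPC replicates 1 to 3. For OLs the shares were 21.2% and 24.97%, and for astrocytes 19.1% and 23.1%. The 95% Wilson interval of OPC replicate 1 (17.98% to 18.41%) overlapped that of OPC replicate 3 (18.10% to 18.41%), and no other pair of intervals did. In order the libraries ran from OPC replicate 2 through OPC replicates 1 and 3, astrocyte replicate 1, OL replicate 1 and astrocyte replicate 2 to OL replicate 2, so OLs and astrocytes alternated.

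**Figure D2:**
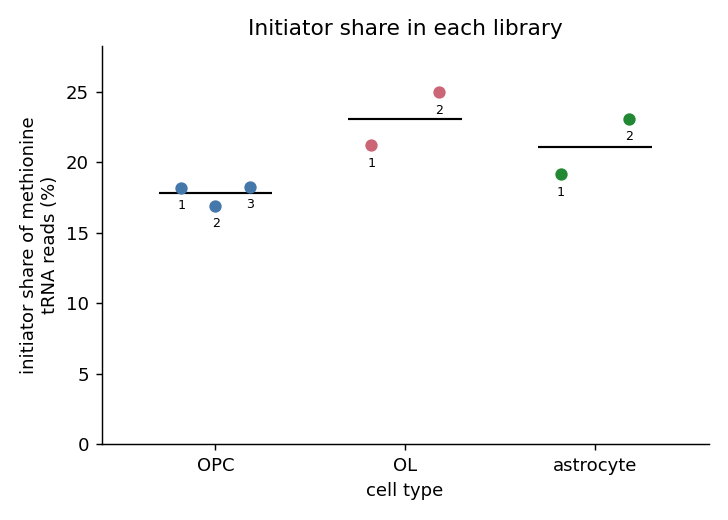
Initiator share of methionine tRNA reads (iMet-CAT over iMet-CAT plus Met-CAT, in %) by cell type; points are libraries with their replicate numbers, vertical bars are 95% Wilson intervals that are mostly smaller than the points, and black lines are group means. The OPC libraries sit between 16.9% and 18.3%, below the lowest library of differentiated cells at 19.1%.

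The OPC mean of the ratio was 0.216 ± 0.0113 (SD, n = 3), against 0.301 ± 0.0450 for OLs (SD, n = 2) and 0.268 ± 0.0449 for astrocytes (SD, n = 2). The mean log2 ratio was 0.47 higher in OLs than in OPCs (SE 0.159), a 1.38-fold difference (exact permutation p = 0.1, two-sided). It was 0.30 higher in astrocytes than in OPCs (SE 0.177), a 1.23-fold difference, also with an exact permutation p of 0.1. In both cases 0.1 is the smallest p that 10 splits of 5 libraries allow, so neither comparison could reach 0.05, and adjusted over the 3 comparisons the p was 0.15. Between OLs and astrocytes the log2 difference was 0.17 (SE 0.230), with an exact permutation p of 0.667 where 0.333 is the smallest possible. The comparisons of OLs and of astrocytes with OPCs use the same OPC libraries and are not independent.

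Single libraries moved these values. The OL against OPC difference was 0.32 without OL replicate 2 and 0.62 without OL replicate 1. The astrocyte against OPC difference was 0.13 without astrocyte replicate 2 and 0.47 without astrocyte replicate 1. OLs minus astrocytes gave -0.0031 without astrocyte replicate 1 and 0.015 without OL replicate 2.

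The difference of a log2 ratio is the initiator's difference minus the elongator's, so its parts can be read off the pools. For OLs against OPCs the parts were 0.22 for the initiator and -0.25 for the elongator (0.12 and -0.35 under median-of-ratios scaling). Of these the elongator's rested mostly on OL replicate 2, without which the parts were 0.24 and -0.072. For astrocytes against OPCs they were 0.00060 and -0.30, so the mean of the initiator contributed almost nothing there, although its astrocyte libraries lay on either side of the OPCs. For OLs against astrocytes they were 0.22 and 0.050. None of these 6 differences passed the threshold in limma.

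The make-up of the elongator pool was examined next. Met-CAT-1, which stands for 2 identical genes, was the main isodecoder, with 46014, 50890.2 and 41109.9 RPM in the OPC libraries, 48440 and 36527 RPM in the OL libraries, and 37612 and 38944.5 RPM in the astrocyte libraries. It made up 58.9% ± 4.43 of the OPC pool (SD, n = 3), against 64.2% ± 1.57 for OLs (SD, n = 2) and 60.5% ± 4.002 for astrocytes (SD, n = 2). OL replicate 1 lay inside the OPC range of its level and OL replicate 2 below it. Its log2 difference in level was -0.12 for OLs (SE 0.132, limma adjusted p 0.526), which was 0.080 without OL replicate 2, and -0.26 for astrocytes (SE 0.108, limma adjusted p 0.221).

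Met-CAT-2, also 2 identical genes, had 17690.5, 18557 and 18829.9 RPM in the OPC libraries, 16363.5 and 13417 RPM in the OL libraries, and 15883 and 14363 RPM in the astrocyte libraries. All libraries of differentiated cells lay below the OPC libraries. The log2 difference was -0.31 for OLs (SE 0.094, limma adjusted p 0.0560) and -0.28 for astrocytes (SE 0.0995, limma adjusted p 0.151). Among all 192 isodecoders tested 22.9% had OL libraries wholly below the OPCs, and 22.9% had astrocyte libraries wholly below. Its share of the pool was steady, at 23.5% ± 1.06 in OPCs, 22.6% ± 0.785 in OLs and 23.9% ± 0.705 in astrocytes.

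Met-CAT-3, from 1 gene, ranged from 7325 to 10814 RPM in OPCs, from 6309.6 to 7385 RPM in OLs and from 6142 to 8691 RPM in astrocytes, so the groups overlapped in its level. OPC replicate 3 and astrocyte replicate 1 were its highest libraries, with 14.1% and 13.3% of the pool against 9.73% to 10.9% in the other 5. The same libraries had the lowest shares of Met-CAT-1, at 53.8% and 57.7%. Within OPCs and within astrocytes the shares of Met-CAT-3 were further apart than the group means, whereas the OL libraries, at 9.96% and 10.9%, were closer together.

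Met-CAT-4, from 1 gene, had the largest difference from OPCs among the methionine isodecoders, both in OLs and in astrocytes. It had 4186, 4777 and 5609 RPM in the OPC libraries, 1916 and 1599 RPM in the OL libraries, and 2951 and 1970.4 RPM in the astrocyte libraries. Both OL libraries were below both astrocyte libraries, as for 19.8% of isodecoders, and all 4 libraries of differentiated cells were below every OPC library. With 2566 to 13644 reads per library, counting error was small beside these differences. How the mapping split reads between Met-CAT-4 and similar isodecoders of the pool was not tested.

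Met-CAT-4 fell by 1.46 on the log2 scale in OLs against OPCs (SE 0.146, limma adjusted p 0.000803), to 0.363 of the OPC level. It was 1 of 9 isodecoders among 192 tested that fell past the threshold, 4.69% of all, and its difference was the 2nd lowest. The other 8 methionine isodecoders did not pass. The size moved little between processing choices, from -1.59 without OL replicate 1 to -1.33 without OL replicate 2, but the adjusted p was 0.0110 and 0.0149 in those fits. It was also above 0.01 in limma without the filter on low isodecoders (0.0139) and without the variance trend (0.0218).

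In astrocytes Met-CAT-4 differed from OPCs by -0.9997 on the log2 scale (SE 0.195), with a limma adjusted p of 0.0240. No isodecoder passed in that comparison (0 of 192, 0%), while 40 of 192 had an unadjusted p under 0.05. Median-of-ratios scaling gave -0.97 with an adjusted p of 1.57e-06, and the fit over all 7 libraries gave the same size with an adjusted p of 0.00655, so the limma call depended on the fit. The difference of OLs from astrocytes was -0.46 (SE 0.201, limma adjusted p 0.175), and 12 of 192 isodecoders (6.25%) passed there, none of them a methionine tRNA.

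Its share of the elongator pool was 5.56%, 5.80% and 7.34% for OPC replicates 1 to 3, then 2.58% and 2.76% for OLs and 4.52% and 3.20% for astrocytes. OPC replicate 3 and astrocyte replicate 1, the highest libraries of Met-CAT-3, also had the highest Met-CAT-4 share of their groups. The OPC libraries were highest and the OL libraries lowest, but how often other shares took this order is not given here. Between OLs and astrocytes the log2 difference of the share was -0.51 (SE 0.216, limma adjusted p 0.224). Of all shares tested 27.2% had OL libraries wholly below the OPCs and 23.4% had astrocyte libraries wholly below. The log2 difference of the share was -1.21 for OLs against OPCs (SE 0.148, limma adjusted p 0.0171) and -0.70 for astrocytes against OPCs (SE 0.219, adjusted p 0.171). Of 184 isodecoder shares 4 (2.17%) passed in the first comparison, none of them a methionine tRNA. The second had 0 of 184 (0%), with 43 at an unadjusted p under 0.05.

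**Figure D3:**
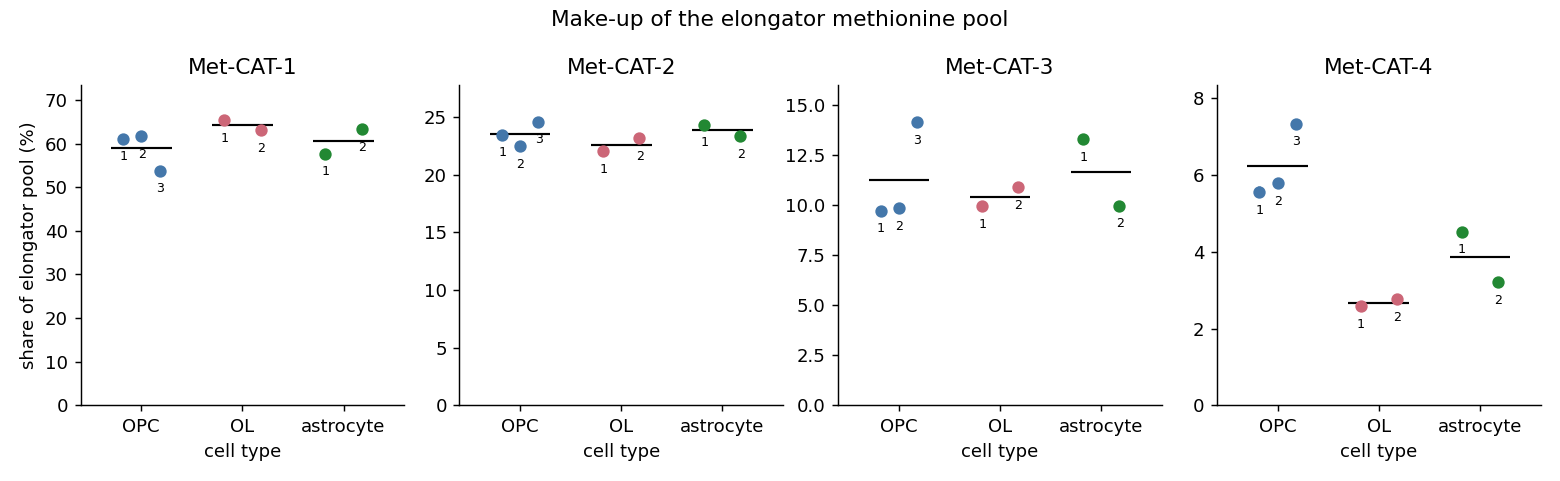
Share of the elongator methionine pool (in %) held by each of its 4 main isodecoders, on axes that start at 0 and differ between panels; points are libraries with replicate numbers, vertical bars are 95% Wilson intervals smaller than most points, and black lines are group means. Met-CAT-4 lies at 5.56% or above in OPCs and at 2.76% or below in OLs, while Met-CAT-2 keeps between 22.1% and 24.6% in every library.

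The difference in the mean of the elongator pool was then divided among its isodecoders. The pool mean differed by -12007 RPM between OLs and OPCs, of which Met-CAT-1 accounted for 29.3%, Met-CAT-2 for 28.9%, Met-CAT-4 for 25.8% and Met-CAT-3 for 15.9%. Those shares depended on the OL library. With OL replicate 1 alone the pool differed by -3873 RPM, with Met-CAT-1 at 2435 RPM above the OPC mean and Met-CAT-4 accounting for 75.9%. With OL replicate 2 alone it differed by -20141 RPM, of which Met-CAT-1 accounted for 47.1% and Met-CAT-4 for 16.2%. Met-CAT-4 itself differed by -2941 and -3258 RPM, nearly the same in both, and was 6.23% of the OPC pool. Between astrocytes and OPCs it differed by -14698 RPM, of which Met-CAT-1 accounted for 52.6%, Met-CAT-2 for 22.0%, Met-CAT-4 for 16.3% and Met-CAT-3 for 9.10%. There Met-CAT-3 accounted for 0.488% without astrocyte replicate 2 and 15.8% without astrocyte replicate 1. When the ratio was taken over the main isodecoders alone, iMet-CAT-1 over Met-CAT-1, its log2 difference was 0.34 for OLs against OPCs and 0.26 for astrocytes against OPCs.

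Met-CAT-5 and Met-CAT-6, each from 1 gene, were rare. Met-CAT-5 had 15.6 to 27.0 RPM, from 22 to 63 reads per library, and Met-CAT-6 had 38.0 to 66.9 RPM, from 60 to 129 reads. They made up 0.0218% to 0.0390% and 0.0585% to 0.0844% of the pool. Their log2 differences in level lay between -0.37 and 0.19 in the 3 comparisons, with SEs of 0.249 to 0.336, and none passed the threshold. Whether depth limited these comparisons was not tested.

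In the initiator pool iMet-CAT-1, which stands for 7 identical genes, made up 99.6% ± 0.020 for OPCs (SD, n = 3), against 99.4% ± 0.065 for OLs (SD, n = 2) and 99.4% ± 0.015 for astrocytes (SD, n = 2). Its values were therefore nearly those of the pool, with a log2 difference of 0.22 for OLs against OPCs (SE 0.062, limma adjusted p 0.0509). For astrocytes against OPCs it was -0.0016 (SE 0.109), and 0.031 under median-of-ratios scaling.

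iMet-CAT-3, from 1 gene, had 53.0, 50.3 and 48.1 RPM in the OPC libraries, 76.1 and 89.1 RPM in the OL libraries, and 62.7 and 79.2 RPM in the astrocyte libraries. All libraries of differentiated cells lay above the OPC libraries. The log2 difference was 0.70 for OLs (SE 0.201, limma adjusted p 0.0509) and 0.47 for astrocytes (SE 0.230, limma adjusted p 0.286). OL libraries lay wholly above OPC libraries for 30.2% of the 192 isodecoders, and astrocyte libraries for 16.7%.

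iMet-CAT-2, from 1 gene, had 19.4, 18.5 and 18.9 RPM in the OPC libraries, 27.7 and 28.7 RPM in the OL libraries, and 22.2 and 26.3 RPM in the astrocyte libraries. Again the OPC libraries were the lowest. The log2 difference was 0.55 for OLs (SE 0.232, limma adjusted p 0.1495) and 0.33 for astrocytes (SE 0.259, limma adjusted p 0.451).

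As shares of the initiator pool both minor isodecoders stood higher in each kind of differentiated cell than in OPCs. iMet-CAT-2 was at 0.112% ± 0.0031 in OPCs, 0.144% ± 0.0072 in OLs and 0.143% ± 0.00099 in astrocytes. iMet-CAT-3 was at 0.300% ± 0.0175, 0.422% ± 0.0575 and 0.418% ± 0.0161. The limma adjusted p of the share was 0.0282 for iMet-CAT-2 and 0.0630 for iMet-CAT-3 in OLs, and 0.05003 and 0.0602 in astrocytes, so none passed. In a fit over all 7 libraries the share of iMet-CAT-2 in OLs passed, with a limma adjusted p of 0.00803 for the same difference of 0.33. OL libraries lay wholly above OPC libraries for 28.8% of all shares, and astrocyte libraries for 20.1%. They rest on 26 to 69 and 71 to 208 reads per library, and the Wilson intervals of single iMet-CAT-2 libraries overlapped between all groups. How reads of similar isodecoders were split by the mapping was not tested, so the levels of these rare isodecoders beside iMet-CAT-1 are uncertain.

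**Figure D4:**
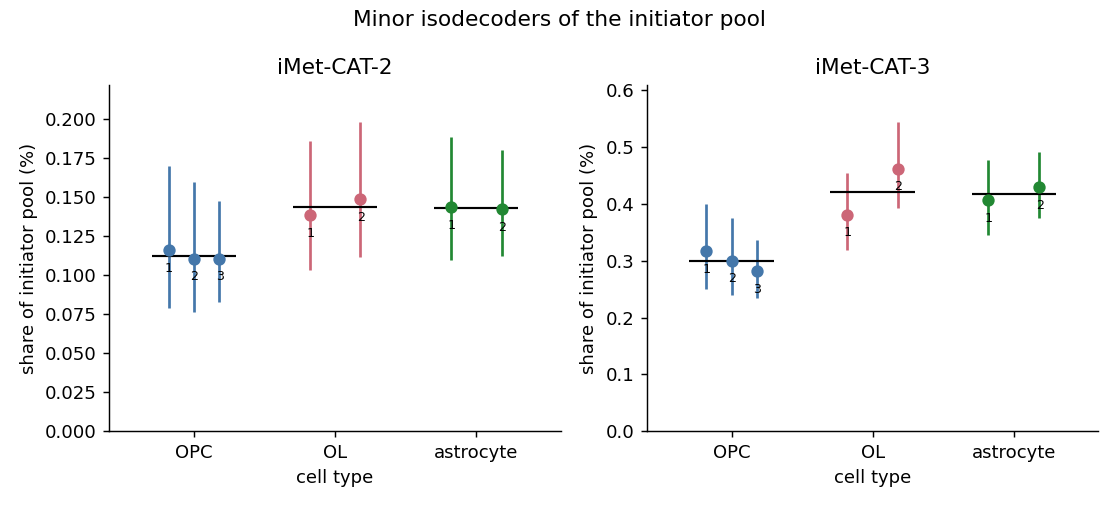
Share of the initiator methionine pool (in %) held by iMet-CAT-2 (left) and iMet-CAT-3 (right), on axes that start at 0; points are libraries with replicate numbers, vertical bars are 95% Wilson intervals from the reads, and black lines are group means. The means of OLs and astrocytes are close together, at 0.144% and 0.143% for iMet-CAT-2, above the OPC mean of 0.112%, with single-library intervals that overlap.

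OLs and astrocytes were set against each other for all 9 isodecoders, and none passed in level or in share, where 7 of 184 isodecoders (3.8%) did. The log2 differences in level ran from -0.46 for Met-CAT-4 to 0.22 for the initiator isodecoders, beside a median of 0.11 over the 192 isodecoders tested. The shares of iMet-CAT-2 and iMet-CAT-3 differed by -0.0037 and 0.0040 on the log2 scale, with SEs of 0.047 and 0.109.

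**Figure D5:**
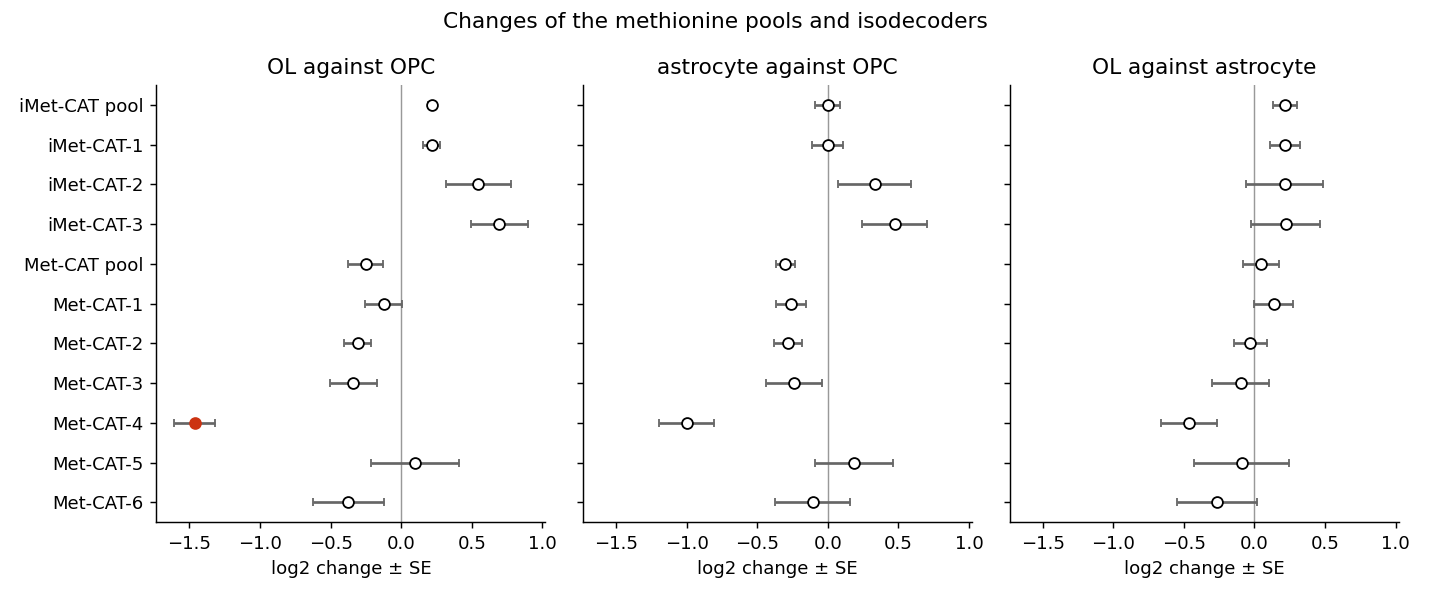
Log2 difference in level, on the log2(RPM + 1) scale, of both methionine pools and all 9 isodecoders in the 3 comparisons; bars are standard errors from limma, filled red points have an adjusted p under 0.01 and open points do not. The only filled point is Met-CAT-4 in OLs against OPCs at -1.46; it is also the lowest point in the other comparisons, at -0.9997 and -0.46.

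Other tRNAs that share features with methionine were read for comparison. Isoleucine occupies the rest of the AUN codon box, and tryptophan and selenocysteine are, like methionine, each specified by a single codon. In OLs against OPCs the log2 difference was 0.38 for Ile-AAT, 0.088 for Ile-TAT, 0.17 for Trp-CCA and 0.61 for SeC-TCA, which inserts selenocysteine at UGA. In astrocytes against OPCs they were 0.29, -0.16, 0.22 and 0.28 in the same order. None of these 4 pools passed in limma in either comparison. By DESeq2 the study itself called the selenocysteine pool higher in OLs than in OPCs at an adjusted p under 0.01. In OLs all 4 had a difference above 0, but so did the median of all 52 pools (0.12), and Ile-TAT lay below that median. The elongator Met-CAT was below 0.

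The pools whose log2 levels varied most like iMet-CAT over the 7 libraries were Leu-CAA (Pearson r = 0.89), Asn-GTT (0.87) and Gly-GCC (0.81). For Met-CAT they were Leu-TAA (0.76), Ser-TGA (0.62) and Pro-AGG (0.53). Between iMet-CAT and Met-CAT r was -0.29, rank 41 of 50 other pools on the initiator's list and rank 29 of 50 on the elongator's. These correlations describe 7 libraries of 3 cell types that share one scaling, so the points are not independent.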

How the data were processed

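tRNA reads of the 7 QuantM-seq libraries were, per the study's methods, trimmed with cutadapt, mapped with Bowtie2 to mature mm10 tRNAs with identical genes collapsed, and counted strand-specifically with featureCounts at a mapping quality of at least 10. The authors deposited the counts as RPM, scaled to 1000000 reads assigned to cytosolic and mitochondrial tRNAs, for anticodon pools and isodecoders. The authors' tables of a DESeq2 comparison of OPCs and OLs, with fold changes and p-values, were not used. Reads were recovered from the RPM steps within 0.01 of a whole number, and were used for depth and for Poisson and Wilson intervals (95%) only.

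Levels were compared as log2(RPM + 1), which understates changes of low tRNAs, in two-sided tests with a variance trend (limma 3.58.1 under R 4.3.3). Adjustment was by Benjamini-Hochberg over all 52 pools or over 192 isodecoders, those averaging 1 RPM or more, at a threshold of 0.01. All 9 methionine isodecoders passed this filter. Shares were log2(RPM + 1) minus that of the pool, for 184 isodecoders, without the trend. Each differentiated type was compared with OPCs in a fit of those libraries, and OLs with astrocytes in a fit of all 7. Ratios were compared by exact permutation tests in SciPy 1.17.1. Replicate libraries differed beyond counting error. Chi-square per degree of freedom was 26.7 to 172 over all isodecoders and 14.4 to 312 over the methionine isodecoders. The fits were also run on simulated data whose noise had the same size for all isodecoders and was independent between them. Real replicates need not vary in that way, and no result above rests on that run. The text names all members, the fixed comparison pools (Ile-GAT was not analysed here) and the 3 pools most like each methionine pool. The members, lists and rules were chosen with earlier results of these data known. Alternatives covered pseudocounts, filters, scaling, the trend, the threshold, the libraries fitted, the replicate number and each library left out.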

Additional observations from a re-analysis of the deposited data

Results flagged for a closer look

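The share of Met-CAT-6 in the elongator pool moved in opposite directions from OPCs in the differentiated cells. It was lower than the OPC mean in both OL libraries and higher in both astrocyte libraries, and the mean log2 share was 0.32 lower in OLs than in astrocytes (log2 difference -0.323). The values were 0.0585% and 0.0656% in OLs, 0.0844% and 0.0712% in astrocytes, and 0.0595%, 0.0812% and 0.0645% in OPCs, so both groups lay partly inside the OPC range. With 60 to 129 reads per library the Wilson intervals of OL and astrocyte libraries overlapped. The direct limma comparison of OLs with astrocytes gave an adjusted p of 0.341, and whether the opposite moves from OPCs differ was not tested beyond this.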

How the results depend on the processing

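Of the 164 recomputed summary values, 144 stayed within the limits set for them, 19 moved and 1 reversed. The number of methionine pools called in OLs against OPCs was 0, and 1 (iMet-CAT) at a threshold of 0.05. Over all 52 pools 0 were called, and 4 (7.69%) at 0.05. Among isodecoders in OLs against OPCs 1 was called (Met-CAT-4), 0 without the filter, 0 without the variance trend, and 0 to 1 when 1 library was left out. Over all 192 isodecoders that comparison made 11 calls, 1 without the filter, 2 without the trend, 19 at a minimum mean of 100 RPM, 17 and 22 under the rescalings, 35 at 0.05, 4 to 29 without 1 of the OPC libraries, and 0 without either OL library. A group left with 1 library was taken to vary like the others. In astrocytes against OPCs 0 methionine isodecoders were called, and 1 (Met-CAT-4) under median-of-ratios scaling, at 0.05 and with all 7 libraries, and 0 to 1 when 1 library was left out. All isodecoders there made 0 calls, and 17, 14 and 10 under the first 3 of those settings. Without OPC replicate 1 and without OPC replicate 3, where Met-CAT-4 was called, they made 6 and 17 calls, and 0 without OPC replicate 2. Among shares in OLs against OPCs 0 were called, 1 (Met-CAT-4) at a minimum mean of 100 RPM, 2 (Met-CAT-4 and iMet-CAT-2) at 0.05 and 1 (iMet-CAT-2) with all 7 libraries. All shares made 4 calls, 16, 26 and 17 under those settings, 12 with a pseudocount of 10, 10 with the trend, 1 without the filter, and 0 to 5 with 1 library left out. OLs against astrocytes made 12 isodecoder calls and 7 share calls, from 0 to 20 and from 0 to 26 under the alternatives, with 0 methionine tRNAs among them in each. The cause of these differences was not tested.

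With each library left out in turn, the log2 difference of the ratio ran from 0.32 to 0.62 for OLs against OPCs, from 0.13 to 0.47 for astrocytes against OPCs and from -0.0031 to 0.34 for OLs against astrocytes. The difference of Met-CAT in OLs against OPCs ran from -0.43 to -0.072. Among single levels it crossed 0 for iMet-CAT (-0.13 to 0.13), iMet-CAT-1 (-0.13 to 0.13), Met-CAT-3 (-0.49 to 0.0097) and Met-CAT-6 (-0.27 to 0.061) in astrocytes against OPCs. It did so for Met-CAT-1 (-0.33 to 0.080) and Met-CAT-5 (-0.28 to 0.48) in OLs against OPCs. In OLs against astrocytes it did so for Met-CAT (-0.13 to 0.23), Met-CAT-1 (-0.067 to 0.34), Met-CAT-2 (-0.17 to 0.12), Met-CAT-3 (-0.35 to 0.15) and Met-CAT-5 (-0.47 to 0.29). Shares crossed 0 for Met-CAT-1 (-0.027 to 0.11), Met-CAT-2 (-0.013 to 0.052) and Met-CAT-3 (-0.15 to 0.27) in astrocytes against OPCs, and for Met-CAT-3 (-0.18 to 0.089) and Met-CAT-6 (-0.21 to 0.0043) in OLs against OPCs. In OLs against astrocytes they did so for iMet-CAT-1 (-0.00073 to 0.00060), iMet-CAT-2 (-0.054 to 0.046), iMet-CAT-3 (-0.13 to 0.14), Met-CAT-3 (-0.36 to 0.060) and Met-CAT-5 (-0.34 to 0.062).

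In OLs against astrocytes Met-CAT was -0.013 when the listed tRNAs were summed to 1000000 and -0.060 by median-of-ratios scaling. iMet-CAT-1 in astrocytes against OPCs was then 0.023 and 0.031. Median-of-ratios scaling moved the median of all pools in OLs against astrocytes from 0.11 to -0.00029. In shares of OLs against astrocytes a pseudocount of 0.1 gave 0.0038 for iMet-CAT-2, and a pseudocount of 10 gave -0.020 for iMet-CAT-3.

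The OL cultures came from OPC cultures that were also sequenced, but no source used here says that the replicate numbers match them, so the numbers were not treated as pairs. Deviations of same-numbered libraries from their group means correlated between -0.29 and 0.34, which with 2 libraries in a group cannot settle the pairing. With the replicate number as a block, 2 methionine isodecoders (Met-CAT-4, and Met-CAT-2 at an adjusted p of 0.00646 against 0.0560 without the block) were called in OLs against OPCs and 1 (Met-CAT-4) in astrocytes against OPCs, with 45 and 24 calls over all isodecoders. The log2 difference of the ratio was 0.49, 0.32 and 0.17 in the 3 comparisons with the block. iMet-CAT-1 in astrocytes against OPCs was 0.0076, the share of Met-CAT-3 in OLs against OPCs 0.089 and that of Met-CAT-1 in astrocytes against OPCs -0.023 with it. The split of the pool difference by library was chosen after seeing the data. With the numbers of OLs and astrocytes crossed, also chosen after seeing the data, 0 methionine tRNAs were called and 18 isodecoders in all. Met-CAT-5, Met-CAT-6, iMet-CAT-2 and iMet-CAT-3 rested on few reads, while counting error was small for the others. Whether depth limited the comparisons of these rare isodecoders was not tested.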
